A study of Mus musculus with 14 samples.

Results

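The 34 genes described here act in germ cells: they encode proteins of the oocyte, of the meiotic chromosome axis and its cohesin, of meiotic recombination, of the piRNA pathway and of germ cell RNA regulation. They were taken as a named list and found by their symbols among the 24054 genes of each deposited table, where all 34 are present. RNA was measured by low-input sequencing in 14 libraries of mouse embryonic stem cells (ESCs) and their derivatives. The d0con cells (2 libraries) carry the genotype Foxa2-Venus-KO/+, in which the fluorescent reporter Venus replaces the coding region of 1 allele of Foxa2, and the d0ko cells (2 libraries) carry Foxa2-Venus-KO/Foxa2-Venus-KO. These ESCs were sorted as Cherry-negative at day 0, which leaves out the red fluorescent feeder cells. The d3con and d3ko cells (3 libraries each) have the same genotypes and were sorted as Venus-positive after 3 days of endoderm differentiation on Wnt3a feeder cells in medium with Activin A at 12 ng/ml. Control cells thus keep 1 Foxa2 allele, and these day 0 and day 3 groups hold no cells with both alleles. By the clone names carried by the deposited tables, replicates 1 and 3 of d3con come from clone C59 and replicate 2 from C63, and replicates 1 and 3 of d3ko come from clone C9 and replicate 2 from C17, so each genotype rests on 2 clones. The d2-FVFn and d2-FVFp cells (2 libraries each) come from a TetON-Foxa2-Venus ESC line, T119, made from cells homozygous for Sox17-Cherry, in which doxycycline induces a Foxa2-Venus fusion protein. Both were grown without feeders in serum with LIF and with doxycycline at 40 ng/ml over 48 hours, then sorted as Venus-negative (d2-FVFn) or Venus-positive (d2-FVFp).

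Germline genes are active in developing eggs and sperm and silent in most somatic tissues. In ESCs many of them carry weakly repressed, CpG-rich promoters and are transcribed at low levels. Their repression involves DNA methylation and the Polycomb complex PRC1.6, in which Mga with Max recognises the E-box and E2f6 with a Dp partner recognises an E2F site. In meiosis, cohesin complexes with meiotic subunits build the chromosome axis, the synaptonemal complex joins homologous chromosomes, and recombination proteins repair the breaks that pair them. The piRNA pathway uses Piwi proteins and Tudor-domain partners to silence transposons in the male germ line.

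The libraries held 14142788 to 27278237 expected counts. Foxa2 itself checked the labels, with 58.6, 34.8 and 54.5 TPM (the deposited transcript level, scaled for gene length and library total) in d3con, 0.11, 0.15 and 0.19 in d3ko, 2.99 and 2.01 in d2-FVFn and 169 and 159.8 in d2-FVFp. Of 8 endoderm markers all were called higher in d3con than in d0con, and of 8 markers of pluripotent cells 7 were called lower. Replicate 2 of d3ko stood apart from the other d3ko libraries. Its 8 pluripotent markers summed to 2699 TPM, against 15545 and 17529 in replicates 1 and 3. Dppa5a made up most of each sum, with 14200.1, 1866 and 15543 TPM in replicates 1, 2 and 3. As a share of the day 0 library of the same clone, Pou5f1 stood at 34.4% and Nanog at 73.5% in replicate 2, close to the 39.1% and 76.0% of replicate 1, while Sox2 stood at 16.8% against 111% and Zfp42 at 7.06% against 53.7%. The 8 endoderm markers summed to 96.7, 170 and 33.4 TPM in d3ko replicates 1, 2 and 3, and 6 mesoderm markers to 29.1, 309 and 67.6. Replicate 2 was thus the highest of the d3ko libraries in both sums. Since it is the only day 3 library of clone C17, the library and the clone cannot be told apart. Markers of feeder fibroblasts summed to 12.0 to 14.2 TPM in d0con, 37.9 to 136 in d0ko, 53.1 to 305 in d3con and 118 to 366 in d3ko, and no marker of the 8 was at 0 in a day 3 library. Their part in the results was not tested. In such bulk libraries fewer cells of a type and less RNA per cell cannot be told apart.

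Undifferentiated ESCs expressed most of these genes. With detection set at 1 TPM or more in every library of a group, 25 of 34 were detected in d0con and 25 in d0ko, and these were the same 25 genes. By this measure 47.2% of all genes were detected in d0con and 48.6% in d0ko. After differentiation 8 of the 34 (23.5%) were detected in d3con, against 48.3% of all genes. In d3ko 14 (41.2%) were detected, against 47.8% of all genes. With d3ko replicate 2 left out, 23 members were detected in d3ko. Counted library by library, 8 to 10 members reached 1 TPM in the d3con libraries, and 23, 14 and 25 reached it in d3ko replicates 1, 2 and 3. In the doxycycline line 25 were detected in d2-FVFn and 24 in d2-FVFp, against 49.3% and 50.9% of all genes. The 8 genes detected in every group were Syce2, Tex19.1, Tdrd12, Ooep, Dmc1, Rec8, Stag3 and Rnf17. Under the same rule 9 were detected in no group, namely Sycp2, Nlrp5, Gdf9, Figla, Nobox, Spo11, Smc1b, Asz1 and Piwil4, although none of the 34 was at 0 in all 14 libraries. Summed over the 34 genes, the level was 794 and 799.6 TPM in d0con, 876 and 998 in d0ko, 165 to 236 in d3con, 539.6, 228 and 766 in d3ko replicates 1, 2 and 3, 629 and 720.3 in d2-FVFn and 509 and 578 in d2-FVFp. Most of the sum left in d3con was Syce2.

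**Figure D1:**
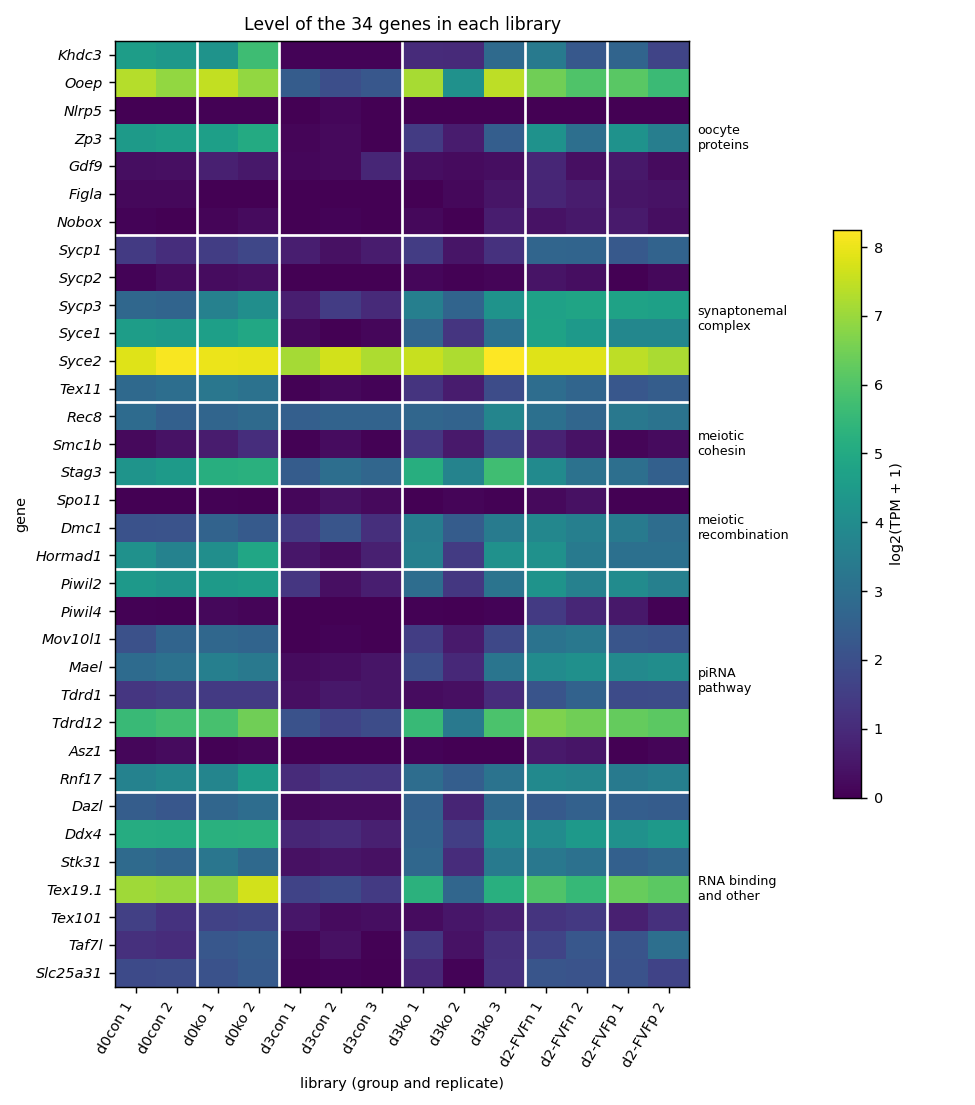
Heat map of log2(TPM + 1) for the 34 genes (rows, ordered by role) in the 14 libraries (columns, by group and replicate). The 3 d3con columns are darkest, with 8 to 10 genes at 1 TPM or more, and d3ko replicate 2 lies between them and the other d3ko columns.

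The promoters of these genes were searched for the E-box CACGTG and the E2F core TCCCGC on both strands, in windows from 250 bases before to 50 bases after the start (RefSeq, GRCm38.p6), and 29 of the 34 genes had an entry. The E-box was found in 13 of them (44.8%) and in 8.09% of all 27025 genes with an entry. The E2F core was found in 14 of them (48.3%) and in 22.1% of all genes, and both in 9 of them (31.0%) and in 2.65% of all genes. The median number of CpG dinucleotides in a window was 18 over the members' promoters and 7 over all 32851 promoters. CpG content and motif share were not separated. The Foxa motif TGTTTAC was found in Piwil4 and Zp3, 6.9% of the members and 4.05% of all genes. In Piwil4 it lies in a window whose start is 22285 bases inside the gene, and the window at the gene's outer edge holds 0. Such matches describe letters in a window and not bound sites. Below, 5 windows are printed 5′ to 3′ on the gene's strand, with matches to the E-box or E2F core in capitals. Ddx4, Hormad1 and Stag3 hold both motifs, while Ooep and Khdc3 hold neither and are shown since both lie among the members with the widest range of levels.
Ddx4 (minus strand, chr13:112652261-112652560): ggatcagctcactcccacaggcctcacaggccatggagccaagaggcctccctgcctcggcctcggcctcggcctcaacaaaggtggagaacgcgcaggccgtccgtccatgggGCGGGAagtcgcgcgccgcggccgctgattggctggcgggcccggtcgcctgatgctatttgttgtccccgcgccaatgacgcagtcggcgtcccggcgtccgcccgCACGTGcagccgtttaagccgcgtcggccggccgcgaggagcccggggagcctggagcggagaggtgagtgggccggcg
Hormad1 (+ strand, chr3:95559427-95559726): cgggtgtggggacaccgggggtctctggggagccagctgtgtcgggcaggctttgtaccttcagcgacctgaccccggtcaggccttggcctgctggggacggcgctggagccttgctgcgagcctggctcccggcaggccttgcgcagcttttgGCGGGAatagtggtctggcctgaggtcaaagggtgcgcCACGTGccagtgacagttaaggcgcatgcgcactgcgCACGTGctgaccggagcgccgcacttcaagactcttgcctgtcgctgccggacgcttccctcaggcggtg
Stag3 (+ strand, chr5:138280259-138280558): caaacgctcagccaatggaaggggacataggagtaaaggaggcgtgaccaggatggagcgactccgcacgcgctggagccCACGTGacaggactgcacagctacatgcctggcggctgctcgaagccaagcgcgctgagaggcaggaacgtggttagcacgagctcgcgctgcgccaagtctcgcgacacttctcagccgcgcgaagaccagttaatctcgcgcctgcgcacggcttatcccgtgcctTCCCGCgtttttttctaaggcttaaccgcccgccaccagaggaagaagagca
Ooep (minus strand, chr9:78378539-78378838): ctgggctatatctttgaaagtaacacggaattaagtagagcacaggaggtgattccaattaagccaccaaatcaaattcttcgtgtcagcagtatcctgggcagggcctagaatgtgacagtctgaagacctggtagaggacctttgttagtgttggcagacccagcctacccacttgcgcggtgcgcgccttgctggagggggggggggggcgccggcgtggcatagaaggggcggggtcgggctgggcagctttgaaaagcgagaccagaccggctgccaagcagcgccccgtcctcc
Khdc3 (+ strand, chr9:73102148-73102447): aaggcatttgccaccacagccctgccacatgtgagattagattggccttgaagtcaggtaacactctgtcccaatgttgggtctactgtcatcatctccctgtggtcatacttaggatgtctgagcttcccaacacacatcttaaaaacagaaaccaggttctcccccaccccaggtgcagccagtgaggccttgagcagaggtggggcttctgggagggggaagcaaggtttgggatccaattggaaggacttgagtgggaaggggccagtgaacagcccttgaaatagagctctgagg
Distances are from the transcript start on which each window was set. That start is the outer edge of the RefSeq gene for Hormad1 and Ooep, and lies inside the gene by 323 bases for Ddx4, 1017 for Khdc3 and 7995 for Stag3. The E-box of Ddx4 starts 29 bases before it, and the 2 E-boxes of Hormad1 start 57 and 20 bases before it. In Stag3 the E-box starts 170 bases and the E2F core 2 bases before it. The Khdc3 window holds 0 CpG dinucleotides and the Ooep window 15.

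**Figure D2:**
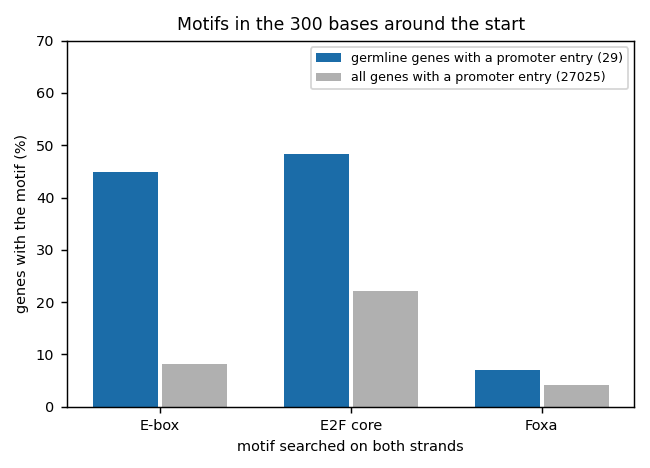
Bar chart of the percentage of genes whose promoter window holds each motif, for the 29 germline genes with a promoter entry (blue) and for all 27025 genes with an entry (grey). The E-box stands at 44.8% against 8.09%, the E2F core at 48.3% against 22.1% and the Foxa motif at 6.9% against 4.05%.

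The comparison of d3con with d0con describes differentiation in cells that keep a working Foxa2 allele. Most germline transcripts that could be tested were lower at day 3. The oocyte genes Khdc3, Zp3 and Ooep, the synaptonemal complex genes Syce1 and Sycp3, the piRNA genes Mov10l1 and Piwil2 and the RNA-binding genes Ddx4 and Dazl had log2 fold changes between -2.53 and -8.72. Of the 26 members with enough counts to be tested, 22 were called lower and 0 higher (called means an edgeR adjusted p under 0.05 and a change over 2-fold). By role these were 3 of 3 tested oocyte genes, 4 of 5 of the synaptonemal complex, 1 of 3 of cohesin, 1 of 2 of recombination, 6 of 6 of the piRNA pathway and 7 of 7 of the last group, of RNA regulators and others. The 4 tested members not called were Smc1b (-1.47, SE 0.91), Syce2 (-0.88, SE 0.28), Dmc1 (-0.83, SE 0.54) and Rec8 (-0.36, SE 0.39). Among all 13899 tested genes 14.6% were called lower and 20.6% higher. The median log2 fold change was -4.59 over the 26 members and 0.07 over all tested genes. The other 8 members (Asz1, Figla, Gdf9, Nlrp5, Nobox, Piwil4, Spo11 and Sycp2) had too few counts, and a gene that passes this filter through its day 0 libraries alone is one that fell, so the counts are of tested members only. In TPM, all d3con libraries lay below all d0con libraries for 26 of the 34 genes, which held for 25% of all genes.

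The comparison of d3ko with d0ko follows the same days without Foxa2. Here 11 of 26 tested members were called lower (Khdc3, Zp3, Tex19.1, Syce1, Ddx4, Tex11, Tex101, Piwil2, Taf7l, Mov10l1 and Rnf17) and 0 higher, where 5.72% of all tested genes were called lower and 11.6% higher. The median log2 fold change was -1.53 over the members. The largest changes among members that were not called were those of Slc25a31 (-2.41, SE 0.85), Tdrd1 (-1.82, SE 0.63) and Mael (-1.45, SE 0.68). Replicates 1 and 2 share a clone between d0ko and d3ko. In a fit that blocks on replicate number the count stayed at 11, while Mov10l1 (edgeR adjusted p = 0.0676) and Taf7l (edgeR adjusted p = 0.114) were no longer called. That block spans both genotypes and sets replicate 3 apart from replicate 1 of the same clone. A fit with the clone as a block is given at the end. Leaving out either d0ko library lowered the count, in fits that leave 1 library in that group. The log2 fold change of Zp3 stayed between -4.79 and -3.29 in all 17 alternatives.

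The comparison of d3ko with d3con asks how Venus-positive cells without Foxa2 differ from those with it. In d3ko 21 of 26 tested members were called higher and 0 lower, where 4.75% of all tested genes were called higher and 3.51% lower. The median log2 fold change was 3.73 over the members and 0.02 over all tested genes. In TPM, all d3ko libraries lay above all d3con libraries for 21 of the 34 genes and for 9.78% of all genes. The members that were not called were Sycp1 (1.21, SE 0.56), Rec8 (0.64, SE 0.35), Tex101 (0.62, SE 0.62), Tdrd1 (0.49, SE 0.59) and Syce2 (0.38, SE 0.26). This comparison shares its d3con libraries with the comparison above, so the values of both are given side by side and not as independent evidence. The count of 21 depended on the fit: it was 1 (Rnf17) when only both groups were fitted, 0 when libraries of 1 clone were summed, 0 without both 75-base libraries, 7 without d3con replicate 1 and 1 (again Rnf17) without d3con replicate 3, while the number of all genes called higher went from 660 to 7, 0, 0, 76 and 9. Without d3ko replicate 2 it was 22, and 1280 of 13802 genes were called higher.

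Among the oocyte proteins, Khdc3 and Ooep belong to the subcortical maternal complex of the egg, as does Nlrp5, and Zp3 is a glycoprotein of the zona pellucida. Khdc3 (chromosome 9, 73101381 to 73106631, RefSeq positions in GRCm38.p6 here and below) had 22.9 and 19.9 TPM in d0con and 0.05, 0.06 and 0.05 in d3con. In ko cells it had 17.7 and 50.9 TPM in d0ko and 1.0, 0.99 and 6.16 in d3ko. Every d3con library was thus below every other library of the 4 groups, and the d3ko libraries lay between. The day 3 counts of Khdc3 in d3con were 3 in all, so the ratio of d0con to d3con of 427 has an exact 95% counting interval of 146 to 2074. Its fitted log2 fold change was -8.72 (SE 1.07, adjusted p = 0.000425) for d3con against d0con and 5.57 (SE 1.06, adjusted p = 0.016) for d3ko against d3con. Exons of Khdc3 share 38.5% of their bases with Gm20509 on the same strand, and reads of both may have been divided between them.

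Zp3 (chromosome 5, 135980105 to 135988624) had 21.6 and 23.4 TPM in d0con, 0.07, 0.15 and 0 in d3con, 24.1 and 32.2 in d0ko and 1.72, 0.56 and 4.53 in d3ko. The 3 counts of Zp3 in d3con give a d0con to d3con ratio of 346 with an interval of 118 to 1681. Zp3 was at its lowest in d3con, and in d3ko replicate 2 it was the lowest of the ko libraries. Ooep (chromosome 9, 78376903 to 78378588) had 161 and 119.9 TPM in d0con and 4.23, 2.98 and 3.67 in d3con. The level of Ooep was 181 and 119.7 TPM in d0ko and 142, 17.2 and 172 in d3ko, so that replicates 1 and 3 of d3ko lay within the range of d0ko and replicate 2 far below it. Ooep was called lower in d3con than in d0con (-5.48, SE 0.80, adjusted p = 0.000816) and higher in d3ko than in d3con (4.93, SE 0.76, adjusted p = 0.0107), and was not called between d3ko and d0ko (-0.61, SE 0.69, adjusted p = 0.524). The pluripotent marker Dppa5a lies 8704 bases from Ooep, the nearest gene of the tables, with levels of 536, 399.9 and 445 TPM across d3con. The oocyte transcription factors Figla and Nobox, the growth factor gene Gdf9 and Nlrp5 stayed under 1 TPM in all 14 libraries.

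The synaptonemal complex genes spanned the widest range of levels. Syce2 (chromosome 8, 84872111 to 84887446), a central element protein, had 231 and 287 TPM in d0con and 138, 205 and 149.9 in d3con. Its level was 258 and 249 TPM in d0ko and 189, 151 and 303 in d3ko. Syce2 thus had at least 138 TPM in each of these libraries. Its fall in d3con passed adjustment at less than 2-fold (-0.88, SE 0.28, adjusted p = 0.0269). The gene overlaps Gcdh, with no exon shared. Syce1 (chromosome 7, 140777229 to 140787854), another central element protein, had 22.9 and 21.5 TPM in d0con, 0.12, 0 and 0.11 in d3con, 24.2 and 29.8 in d0ko and 5.56, 1.43 and 7.52 in d3ko. It was near 0 in d3con alone among the 4 groups, and its log2 fold changes were -8.20 (SE 0.82, adjusted p = 0.000231) for d3con against d0con, -2.63 (SE 0.58, adjusted p = 0.0108) for d3ko against d0ko and 5.80 (SE 0.79, adjusted p = 0.00927) for d3ko against d3con.

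Sycp3, a component of the axial and lateral elements, had 5.77 and 5.29 TPM in d0con and 0.63, 1.77 and 0.98 in d3con. In ko cells it had 11.2 and 15.8 TPM in d0ko and 10.8, 5.28 and 17.9 in d3ko, so its d3ko and d0ko libraries overlapped. Exons of Sycp3 share 52.2% of their bases with Chpt1 on the other strand, and the library method does not mark strand, so reads of both genes cannot be told apart there. Tex11, a meiotic protein needed for crossovers, had 6.02 and 6.82 TPM in d0con, 0.03, 0.12 and 0.06 in d3con, 8.7 and 7.63 in d0ko and 1.35, 0.56 and 2.79 in d3ko. All d3con libraries of Tex11 lay below all libraries of the other 3 groups. Sycp1, the transverse filament protein, had 1.62 and 1.13 TPM in d0con, 0.61, 0.3 and 0.53 in d3con, 1.82 and 2.41 in d0ko and 1.75, 0.39 and 1.25 in d3ko. Its call in d3con against d0con was close to the threshold (-1.69, SE 0.61, adjusted p = 0.0429) and was lost in 8 of 16 alternatives. Sycp2 had at most 0.34 TPM in any library.

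Stag3, Rec8 and Smc1b encode cohesin subunits of meiosis, and 1 of the 3, Stag3, was called lower in d3con than in d0con (median log2 fold change of the 3, -1.47). Stag3 (chromosome 5, 138272514 to 138312397) had 18.2 and 21.4 TPM in d0con and 4.23, 6.82 and 5.55 in d3con. In ko cells it had 34.8 and 36.6 TPM in d0ko and 35.4, 12 and 51.6 in d3ko, where replicate 3 was above both d0ko libraries and replicate 2 below. Stag3 was called lower in d3con (-2.05, SE 0.47, adjusted p = 0.00624) and higher in d3ko than in d3con (2.59, SE 0.45, adjusted p = 0.013), and its change from d0ko to d3ko was within the error (-0.27, SE 0.46). Rec8 had 6.33 and 4.72 TPM in d0con, 4.59, 5.11 and 5.21 in d3con, 5.42 and 6.21 in d0ko and 5.62, 5.14 and 12.5 in d3ko. Replicate 3 of d3ko was the highest for Rec8, the other 9 libraries lay between 4.59 and 6.33 TPM, and no comparison called it. Smc1b had 0.15 and 0.31 TPM in d0con, 0.04, 0.21 and 0.04 in d3con, 0.56 and 1.13 in d0ko and 1.49, 0.48 and 2.17 in d3ko. It was called higher in d3ko than in d3con (3.84, SE 0.83, adjusted p = 0.0227) with no library of these groups above 2.17 TPM. It reached 1 CPM only in ko libraries, so its entry into the test favoured a higher level there.

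Of the recombination genes, Dmc1 encodes the meiotic recombinase, Hormad1 an axis protein that promotes break formation and Spo11 the enzyme that makes the breaks. Hormad1 (chromosome 3, 95559677 to 95587863) had 17 and 11.6 TPM in d0con and 0.42, 0.2 and 0.64 in d3con. In ko cells the values were 15.8 and 28.4 TPM in d0ko and 11.2, 1.68 and 17 in d3ko, and again replicate 2 was the lowest. Its log2 fold changes were -5.30 (SE 0.87, adjusted p = 0.00137) for d3con against d0con and 4.58 (SE 0.83, adjusted p = 0.0142) for d3ko against d3con. Dmc1 had 3.22 and 3.33 TPM in d0con, 1.63, 3.48 and 1.18 in d3con, 5.17 and 4.1 in d0ko and 10.2, 4.24 and 9.91 in d3ko. The d0con and d3con libraries of Dmc1 overlapped, and replicates 1 and 3 of d3ko were above all other day 0 and day 3 libraries. Dmc1 was called in d3ko against d3con (1.99, SE 0.50, adjusted p = 0.0355) and not in d3con against d0con (-0.83, SE 0.54, adjusted p = 0.218) or d3ko against d0ko (0.69, SE 0.54, adjusted p = 0.357). Spo11 had at most 0.30 TPM in any library.

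All 6 tested genes of the piRNA pathway were called lower in d3con than in d0con, 3 of them were called lower in d3ko than in d0ko, and 5 were called higher in d3ko than in d3con. Tdrd12 (chromosome 7, 35466941 to 35537784), a Tudor-domain protein, had the highest level of them, with 47.6 and 53.4 TPM in d0con, 3.2, 2.19 and 2.75 in d3con, 56.6 and 87.9 in d0ko and 46.1, 9.07 and 59.2 in d3ko. The Piwi protein gene Piwil2 had 20.4 and 18.3 TPM in d0con, 1.48, 0.27 and 0.63 in d3con, 21.6 and 23 in d0ko and 6.73, 1.52 and 8.12 in d3ko. Both genes were lowest in d3con, and among the d3ko libraries replicate 3 reached the d0ko range for Tdrd12 while none did for Piwil2. Rnf17, a Tudor-domain protein of germ cell granules, had 11.8 and 13.5 TPM in d0con, 1.01, 1.55 and 1.47 in d3con, 12.6 and 22.3 in d0ko and 6.8, 4.58 and 7.78 in d3ko. It had the smallest errors of the pathway, with log2 fold changes of -3.44 (SE 0.31, adjusted p = 0.000176) for d3con against d0con, -1.60 (SE 0.29, adjusted p = 0.00519) for d3ko against d0ko and 2.26 (SE 0.29, adjusted p = 0.00726) for d3ko against d3con.

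Mov10l1 (chromosome 15, 88982891 to 89055152), the RNA helicase that feeds transcripts into piRNA production, had 3.11 and 5.28 TPM in d0con, 0, 0.05 and 0 in d3con, 5.81 and 5.34 in d0ko and 1.83, 0.51 and 2.44 in d3ko. With 2 counts in d3con its d0con to d3con ratio was 301 (exact 95% counting interval 82.8 to 2497). Mael, a protein of the same pathway, had 6.3 and 7.48 TPM in d0con, 0.17, 0.25 and 0.37 in d3con, 10.7 and 9.0 in d0ko and 2.84, 0.95 and 8.23 in d3ko. All d3ko libraries of Mael lay below those of d0ko, replicate 3 by the least. Tdrd1, a Tudor-domain partner of Piwi proteins, had 1.49 and 1.68 TPM in d0con, 0.27, 0.46 and 0.39 in d3con, 1.66 and 1.63 in d0ko and 0.2, 0.27 and 1.08 in d3ko. It was the 1 tested piRNA gene that d3ko against d3con did not call (0.49, SE 0.59, adjusted p = 0.633), and its d3ko and d3con libraries overlapped. Asz1 had at most 0.47 TPM in any library, and Piwil4 at most 0.13 TPM at day 0 and day 3.

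The last group holds germ cell RNA regulators and other germ cell proteins. Tex19.1 (chromosome 11, 121146143 to 121148314), which restrains retrotransposons, had 135 and 126 TPM in d0con, 2.18, 2.58 and 1.62 in d3con, 117 and 203 in d0ko and 38.8, 5.56 and 36.2 in d3ko. Ddx4 (chromosome 13, 112598333 to 112652633), the germ cell helicase also known as Vasa, had 33.6 and 32.6 TPM in d0con, 0.86, 1.03 and 0.67 in d3con, 36.6 and 37.9 in d0ko and 5.37, 1.91 and 14.1 in d3ko. No d3ko library reached the day 0 range of either gene. Dazl, an RNA-binding translation regulator, had 4.4 and 3.75 TPM in d0con, 0.12, 0.19 and 0.19 in d3con, 5.67 and 6.65 in d0ko and 4.94, 0.8 and 6.01 in d3ko. Stk31, a Tudor-domain kinase-like protein, had 6.18 and 5.52 TPM in d0con, 0.29, 0.38 and 0.3 in d3con, 8.36 and 6.02 in d0ko and 5.72, 1.05 and 9.51 in d3ko. For Dazl and Stk31 replicate 3 of d3ko lay within or above the d0ko range and replicate 2 was the lowest. Their log2 fold changes in d3ko against d3con were 4.55 (SE 0.71, adjusted p = 0.0107) for Dazl and 4.08 (SE 0.71, adjusted p = 0.0132) for Stk31, and in d3ko against d0ko -0.80 (SE 0.63, adjusted p = 0.357) and -0.56 (SE 0.66, adjusted p = 0.538).

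The remaining genes of this group were weakly expressed. Slc25a31, a germ cell ADP/ATP carrier, had 2.58 and 2.74 TPM in d0con, 0, 0.05 and 0 in d3con, 3.19 and 4.02 in d0ko and 0.89, 0.05 and 1.28 in d3ko. Its single count in d3con gives a d0con to d3con ratio of 199 with an interval of 35.1 to 7931. Taf7l, a germ cell subunit of the general transcription factor TFIID, had 1.23 and 1.07 TPM in d0con, 0.09, 0.3 and 0.04 in d3con, 3.67 and 4.31 in d0ko and 1.55, 0.32 and 1.15 in d3ko. Tex101, a surface glycoprotein of germ cells, had 1.96 and 1.33 TPM in d0con, 0.42, 0.19 and 0.23 in d3con, 2.07 and 2.31 in d0ko and 0.22, 0.4 and 0.66 in d3ko. Tex101 was low at day 3 in both genotypes, with log2 fold changes of -2.71 (SE 0.63, adjusted p = 0.00663) in control and -2.46 (SE 0.60, adjusted p = 0.0154) in ko cells.

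**Figure D3:**
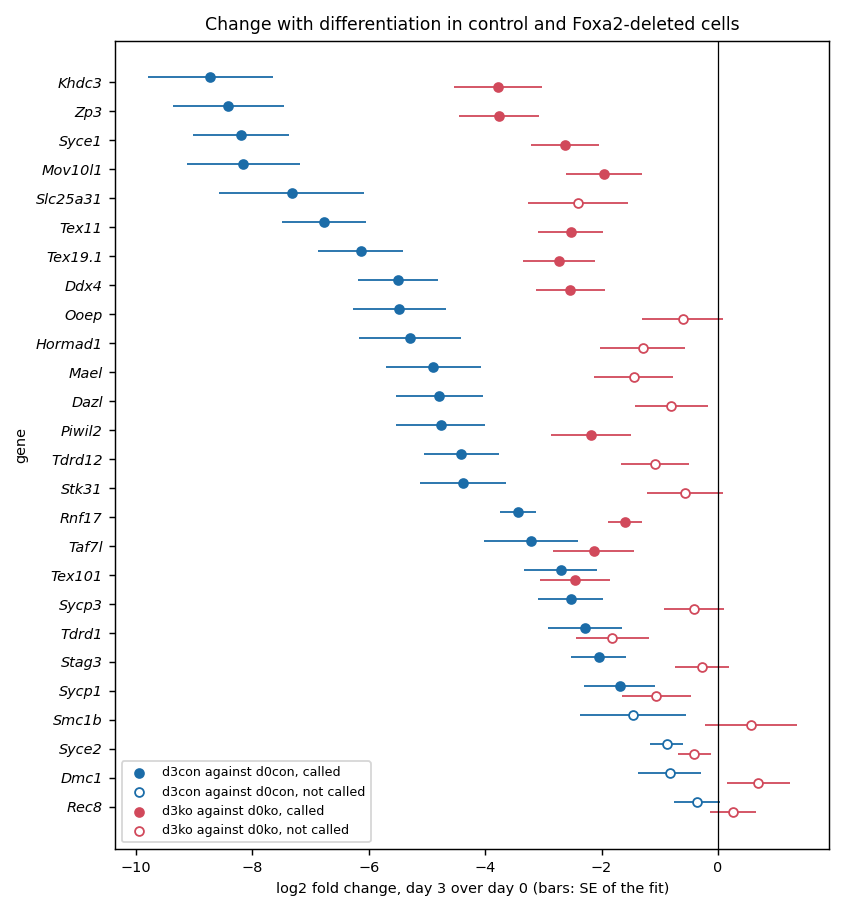
Log2 fold change of day 3 over day 0 with its SE from the edgeR fit, for the 26 tested genes (rows), in control cells (blue, 2 and 3 libraries) and in Foxa2-deleted cells (red, 2 and 3 libraries). Filled points were called and open points were not, and the blue points reach -8.72 where the red ones reach -3.78.

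The level left at day 3 was also taken within clones, as the TPM of each day 3 library over that of the day 0 library of the same clone, for the 25 genes detected at day 0. Its median was 4.69%, 4.10% and 4.32% in d3con replicates 1, 2 and 3 and 42.2%, 10.6% and 65.1% in d3ko replicates 1, 2 and 3. Over the 11202 genes detected in all day 0 libraries the median was 99.0% to 112% in these 6 libraries. The 8 pluripotent markers had medians of 5.35%, 6.80% and 3.79% in d3con and 96.9%, 19.2% and 112% in d3ko. Thus in the d3ko libraries the medians of the 25 genes lay below those of the pluripotent markers, and the libraries kept the same order in both. Within d3ko replicate 3 single genes ranged from 18.8% to 230.4%. Replicates 1 and 3 of a genotype were divided by the same day 0 library, so their shares are not independent. No test was made on these shares.

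**Figure D4:**
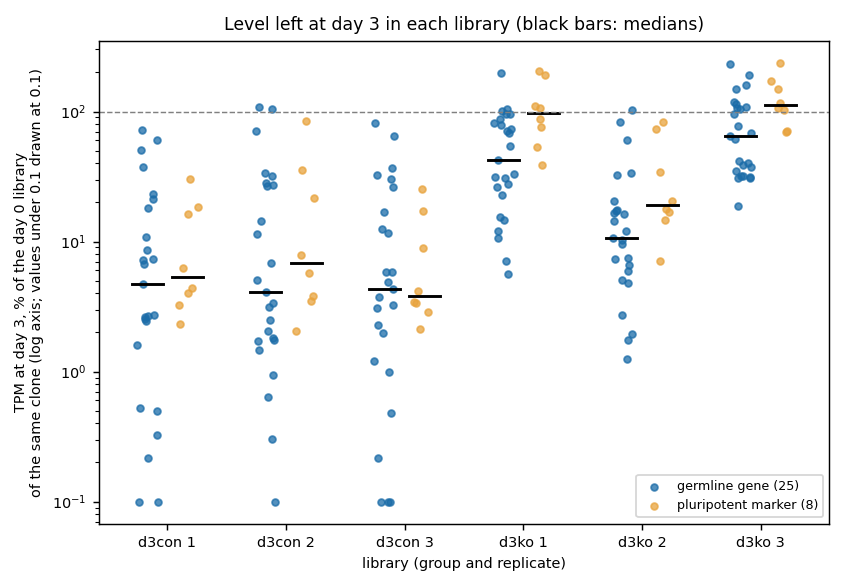
TPM in each day 3 library as a percentage of the day 0 library of the same clone (log axis, values under 0.1% drawn at 0.1%), for 25 germline genes (blue) and 8 pluripotent markers (orange), with medians as black bars. The medians of the germline genes are 4.10% to 4.69% in d3con and 42.2%, 10.6% and 65.1% in d3ko.

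Whether the change from day 0 to day 3 differed between the genotypes was tested as the interaction of both. No member passed adjustment (lowest adjusted p = 0.129, Syce1), nor did any of the 13899 genes. At an unadjusted p under 0.05 there were 18 of the 26 members and 13.2% of all genes, with differences between the log2 changes of 6.19 for Mov10l1, 5.56 for Syce1 and 4.94 for Khdc3 at the upper end. All 26 differences were above 0, with a median of 3.14, against 0.0017 over all genes. DESeq2 on the same libraries called 14 members and 2.15% of all genes higher, and without d3ko replicate 2 edgeR called 18 members and 4.85% of all genes higher.

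Before differentiation the comparison of d0ko with d0con called 0 of 26 members and 0 of all genes (0% of 13899). At an unadjusted p under 0.05 edgeR had 0 members and 1.4% of all genes, while DESeq2 and limma on all 10 libraries called 0 members and DESeq2 on only these 4 libraries called 1 higher, Taf7l. The largest differences were those of Smc1b (1.81, SE 0.92), Taf7l (1.75, SE 0.78) and Sycp3 (1.25, SE 0.59). Of these, Smc1b entered the test through ko libraries alone. In TPM, both d0ko libraries lay above both d0con libraries for 22 of the 34 genes and for 26.7% of all genes. Taf7l had 3.67 and 4.31 TPM in d0ko and 1.23 and 1.07 in d0con, and Sycp3 had 11.2 and 15.8 in d0ko against 5.77 and 5.29 in d0con.

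The comparison of d2-FVFp with d2-FVFn sets Venus-positive against Venus-negative ESCs, both grown with doxycycline and not differentiated. Induced Foxa2 and other differences between the sorted cells cannot be told apart. Of 25 tested members 1 was called lower, Mov10l1, and 0 higher, where 1.47% of 12943 tested genes were called lower and 6.96% higher. Mov10l1 had 7.78 and 8.76 TPM in d2-FVFn and 3.5 and 3.23 in d2-FVFp (-1.35, SE 0.21, adjusted p = 0.00813), and it was not called without d2-FVFn replicate 2 (adjusted p = 0.067). The median log2 fold change was -0.42 over the members and 0.01 over all tested genes, and 20 of the 25 were below 0. Syce1, with 26.1 and 20.7 TPM in d2-FVFn and 13.1 and 13 in d2-FVFp, and Syce2, with 229.7 and 231 against 171 and 146, passed adjustment at less than 2-fold (-0.89, adjusted p = 0.0321 and -0.59, adjusted p = 0.0312). In both, the libraries of d2-FVFp lay below those of d2-FVFn, as in 20 of the 34 genes and 22.9% of all genes.

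The largest changes that were not called were those of Piwil4 (-2.40, SE 0.84, adjusted p = 0.0917), Stag3 (-0.94, SE 0.34, adjusted p = 0.0996) and Syce1. Piwil4, a Piwi protein of fetal male germ cells, had 1.67 and 0.84 TPM in d2-FVFn and 0.46 and 0.04 in d2-FVFp. It reached 1 CPM, the limit for testing, in the d2-FVFn libraries alone, so its entry into the test favoured a fall. Other members overlapped between the groups: Ddx4 had 14.9 and 20.5 TPM in d2-FVFn and 16.9 and 20.3 in d2-FVFp, Sycp3 had 25.7 and 27.4 against 26.1 and 25, and Dazl had 4.05 and 4.96 against 4.5 and 4.28. Tex19.1 was higher in both d2-FVFp libraries without being called, with 61.8 and 45.5 TPM in d2-FVFn and 79.1 and 71.3 in d2-FVFp (0.44, SE 0.19, adjusted p = 0.147). Ooep had 87.4 and 62.2 TPM in d2-FVFn against 68.7 and 48.8 in d2-FVFp. In the same order Tdrd12 had 100.3 and 87.7 against 77 and 71 TPM, and Hormad1 had 17.1 and 9.23 against 7.17 and 7.31 TPM. The 8 pluripotent markers summed to 7942 and 6403 TPM in d2-FVFn and to 5799 and 4260 in d2-FVFp, most of it Dppa5a with 5459.8 and 4163 against 3749 and 2630.1. Of the 8, Klf4 (1.29) and Tbx3 (1.88) were called higher in d2-FVFp and 0 lower. The part of these markers in the values of the germline genes was not tested.

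**Figure D5:**
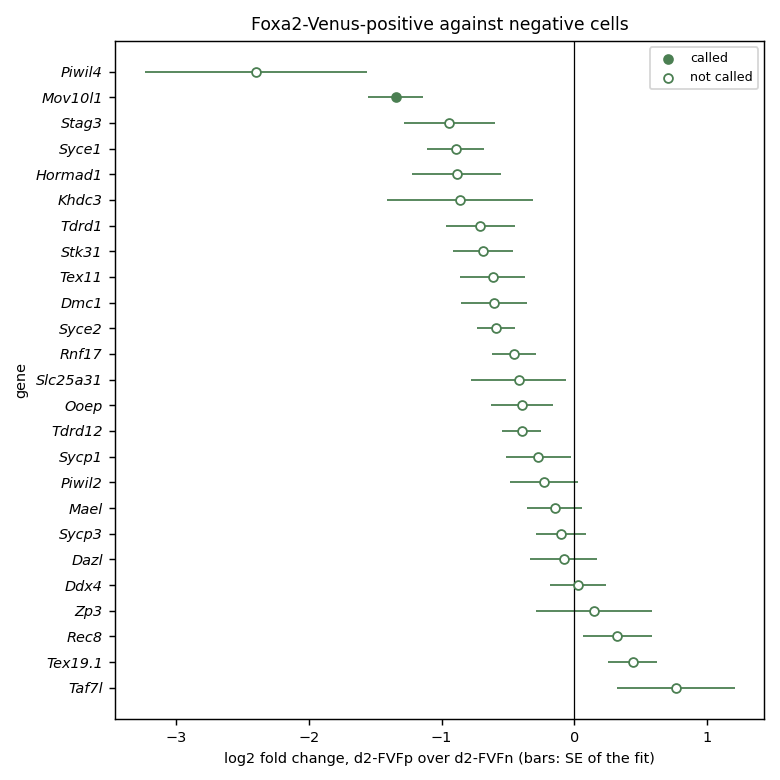
Log2 fold change of d2-FVFp over d2-FVFn with its SE from the edgeR fit, for the 25 tested genes (2 libraries a group). Mov10l1 at -1.35 is the filled (called) point, and 20 of the 25 points lie left of 0.

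Further genes of the same pathways, listed by function, did not all follow. Of 9 tested further piRNA genes, d3con against d0con called 2 lower, Gtsf1l (-5.26) and Tex15 (-1.75), and 1 higher, Tdrd7 (2.61). Among all tested genes 14.6% were called lower and 20.6% higher there. In d3ko against d3con Gtsf1l (4.29) and Mybl1 (1.59) were higher and Tdrd7 (-1.70) lower, where 4.75% and 3.51% of all tested genes were called. Of 19 tested further meiosis genes, 9 were called lower in d3con than in d0con and 5 higher, where the shares of all genes were 14.6% and 20.6%, so that 5 of 19 higher is near the share of all genes. The larger falls were those of Spata22 (-7.62), Hsf2bp (-4.70) and Hormad2 (-3.65), all of which act in meiotic recombination or on the axis. The 5 called higher were Prdm9 (3.18), which marks recombination hotspots, Msh5 (3.05) and Hfm1 (2.23), which promote crossovers, and Meiob (2.61) and Ccdc79 (1.93). In d3ko against d3con 6 of the 19 were higher, led by Tex14 (4.25), Hsf2bp (3.91) and Hormad2 (3.87), and 0 lower. The shares of all tested genes there were 4.75% higher and 3.51% lower. In d3ko against d0ko 1 was higher, Msh5 (2.14), and 1 lower, Spata22 (-4.33). Among all tested genes 11.6% were called higher and 5.72% lower there, so neither count is above the share of all genes.

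Only 4 of 18 further oocyte genes could be tested at day 0 and day 3, of which Nlrp4f (-6.85) and Nlrp9b (-5.49) were lower in d3con than in d0con, and Nlrp4f (5.58) was higher in d3ko than in d3con. In d3ko against d0ko Nlrp9b (-4.15) was lower, where 5.72% of all tested genes were. In the doxycycline line 2 of 5 tested were higher in d2-FVFp, Tle6 (1.35), a partner of the subcortical maternal complex, and Nlrp4f (1.26). Of all genes tested in that line 6.96% were called higher. Both Nlrp genes belong to a family of similar sequences, and the division of reads among them is uncertain. Of 7 tested primordial germ cell markers, Dppa3 (-4.62), Prdm14 (-3.42), Nanos3 (-3.27) and Tfap2c (-1.65) were lower in d3con than in d0con and Prdm1 (2.03) and Tdrd7 were higher. Among all tested genes 14.6% were called lower and 20.6% higher there, so 2 of 7 higher is near the share of all genes. In d3ko against d3con 2 of the 7 were higher and 2 lower, where 4.75% and 3.51% of all tested genes were called. In d3ko against d0ko 1 of the 7 was lower, where 5.72% of all tested genes were. In d2-FVFp against d2-FVFn 1 of 6 tested was lower, where 1.47% of all tested genes were. All 12 genes of PRC1.6 were at 1 TPM or more in all libraries. In d3con against d0con 2 of the 12 were lower, L3mbtl2 (-1.67) and Tfdp1 (-1.20), and 1 was higher, Yaf2 (3.11). Set against the same shares of all genes, 2 of 12 lower is near the 14.6% and 1 of 12 higher is not above the 20.6%. In d3ko against d0ko L3mbtl2 (-1.26) was lower and Yaf2 (2.30) higher, where 5.72% and 11.6% of all genes were called. In the other comparisons 0 were called. Of 5 tested markers of the Zscan4-positive state of ESCs, Zscan4a, Zscan4c, Zscan4d and Zscan4f were called lower and Tcstv3 higher in d3con against d0con. The Zscan4 genes are near-identical copies, so the division of reads among them is uncertain. In d3ko against d0ko 3 of the 5 were called lower and 0 higher. The sum of the 12 markers listed was 6.48 and 7.99 TPM in d0con, 14 and 22.8 in d0ko, and 4.24 to 12.5 in the day 3 libraries. In the doxycycline line the sum was higher in most libraries, with 48.9 and 7.88 TPM in d2-FVFn and 66.9 and 49.9 in d2-FVFp. The part of these markers in the values of the germline genes was not tested.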

How the data were processed

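The 14 libraries were made by the authors from sorted cells with a SMART-Seq low-input kit, which does not mark strand. Reads were aligned by the authors to mm10 (GRCm38) with STAR and quantified with RSEM, per the labels, with versions not given in the sources used here. The deposited tables hold expected counts (estimated reads per gene, not scaled), TPM and FPKM (scaled by the authors for gene length and library total), and FPKM were not used here. The effective lengths show reads of 75 bases in replicate 1 of d3con and of d3ko and of 50 bases elsewhere, which affects how reads of similar genes are assigned. Replicates are separate samples in the labels, which do not say how far the cultures were independent, so p-values measure the spread between these samples.

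Expected counts were rounded. Genes reaching 1 CPM in 2 or more of the fitted libraries were kept, 13899 for the 10 libraries of day 0 and day 3 and 12943 for the 4 libraries with doxycycline. The quasi-likelihood test of edgeR 4.0.16 (R 4.3.3) was run on TMM-scaled counts, with p-values adjusted by Benjamini-Hochberg over every gene kept. Calls needed adjusted p under 0.05 together with a log2 fold change beyond 1 in size, and the SE is the fold change over the square root of F. On simulated counts with 200 genes changed 4-fold, this recovered 63.5% for d3con against d0con, 65% for d3ko against d0ko, 76% for d3ko against d3con, 62.5% for d0ko against d0con, 45.5% for the interaction and 90.5% for the doxycycline comparison. All other genes were simulated without change, and 0 to 6 of them were called. The share of changed genes affects the adjustment, so recovery in the real comparisons may differ.

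Alternatives were median-of-ratios scaling, other filters, DESeq2 1.42.0, limma 3.58.1 on log2(TPM + 1), stricter thresholds, smaller fits, blocks for replicate number or clone, and fits without single libraries. By the clone names in the deposited tables, replicates 1 and 2 share a clone between day 0 and day 3, which pairs them in the comparisons within a genotype, although deviations of same-numbered libraries correlated at only -0.075 to 0.039 across genes. Replicate 3 at day 3 and replicate 1 at day 0, also of 1 clone, correlated at -0.025 in control and 0.116 in ko cells.

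Members, lists, roles and tests were chosen with earlier results of these data known. Members called in any comparison or with a group mean of at least 5 TPM are given library by library, the others by range. Each comparison names its called members or, where these are fewer, all tested members not called. The 3 largest changes not called are named, and up to 5 called genes of each further list. Positions and promoters are from RefSeq (GRCm38.p6) and exon overlaps from GENCODE M21.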

Additional observations from a re-analysis of the deposited data

How the results depend on the processing

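No called member changed sign in any alternative. For d3con against d0con the count of members called lower stayed between 18 and 25 in all alternatives. For d3ko against d0ko, where 11 were called lower, the count was 2 when tested against a 2-fold change, 3 at an adjusted p under 0.01, 4 in a fit of only both groups and 7 without the 75-base libraries. Of all 13899 tested genes, 138 were called lower against a 2-fold change and 418 at an adjusted p under 0.01. With both replicate 2 libraries at day 3 left out, chosen after seeing the data, 1 member, Dmc1, was called higher. Leaving out single libraries gave 1 to 13. For d3ko against d3con, where 21 were called higher, the count was 13 against a 2-fold change, 3 at an adjusted p under 0.01, 1 in a fit of only both groups, 0 without the 75-base libraries and 0 with libraries of 1 clone summed. Leaving out single libraries gave 1 to 22. The cause was not tested. For the interaction, with 0 called, DESeq2 called 14, the fit with both replicate 2 libraries left out called 19, and fits without single libraries gave 0 to 18. For d0ko against d0con DESeq2 on only both groups, added after seeing the data, called 1 higher. For d2-FVFp against d2-FVFn, with 1 called lower, no filter gave 2, a test against a 2-fold change gave 0 and fits without single libraries gave 0 to 2.

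In fits with a replicate block, 22 members were called lower in d3con against d0con, 11 lower in d3ko against d0ko, 18 higher in d3ko against d3con and 0 in d0ko against d0con and the interaction, and 2 lower in d2-FVFp against d2-FVFn, which added Piwil4. Piwil4 passed the filter through its d2-FVFn libraries alone. Same-numbered libraries of d3ko and d3con, which are of different clones, correlated at 0.58, 0.29 and 0.011, where those of replicate 1, at 0.58, are also the only 75-base libraries, and those of the doxycycline groups at 0.34. In d3ko against d3con the block lost the calls of Dmc1 (edgeR adjusted p = 0.0696), Slc25a31 (0.0608) and Taf7l (0.0859). With the clone as a block 22 and 12 members were called lower in control and ko cells.

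Counts of detected members moved with the limit. At 0.1 TPM there were 20 in d3con and 26 in d3ko. At 5 TPM there were 16 in d0con, 1 in d3con, 7 in d3ko and 14 in d2-FVFp. With at least 10 expected counts there were 13 in d3con. Leaving out single d3ko libraries gave 14 to 23.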
